A study of Schizosaccharomyces pombe with 6 samples.

Results

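The subject is the input DNA of a Rad52 chromatin immunoprecipitation experiment in fission yeast (Schizosaccharomyces pombe): the DNA taken before immunoprecipitation, compared between rad3-deleted cdc25-22 cells (n = 3 arrays) and cdc25-22 cells (n = 3 arrays). All 6 arrays of the series enter, through the red channel of each. Both strains carry cdc25-22, a temperature-sensitive allele of the phosphatase that lets cells enter mitosis, and the first strain also lacks rad3. Per the labels, both grew in minimal medium and were blocked by 4 h at 36.5 °C. They then went back to 25 °C, with 6 mM hydroxyurea added; the time of harvest is not given in the sources used here. The arrays are two-colour Agilent genome tiling arrays with input in red and immunoprecipitate in green. Dyes were exchanged on none (0) of the arrays, so the dye effects of single probes are not averaged out.

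Hydroxyurea inhibits ribonucleotide reductase and starves replication forks of nucleotides. Rad3, the fission yeast relative of ATR, starts the checkpoint response to stalled forks and, through the kinase Cds1, holds back origins that would fire late. Sequence that has been copied is present in more copies per cell than sequence that has not, so input DNA on a tiling array reads relative DNA copy across the genome. Fission yeast origins have no fixed consensus sequence and mostly lie in intergenic AT-rich islands with runs of A or T, and the subtelomeres are known as late-replicating regions.

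Files and labels disagreed for 4 of the 6 arrays. The deposited value table has a column per sample, and 5 of its 6 columns matched a scanner file at every probe to 0.001 log2. For replicates 1 and 2 the match crossed over between the strains, so these 4 files were exchanged here. The file listed as cdc25-22 replicate 3 matched no column and was left in place. The rad3 gene (SPBC216.05, chrII:904184-913629, ASM294v3, plus strand) bears on this choice. Over 7 probes at chrII:909475-911114, the mean log2 input relative to the array median was -5.81, -3.33 and -6.07 on the rad3-deleted arrays after the exchange, against -0.47, -0.38 and -0.49 on the cdc25-22 arrays. The 2 probes to the left of this stretch, at chrII:909012-909342, lacked signal on the rad3-deleted arrays 1 and 3 (-6.09 and -6.04 at the first of them) but not on array 2 (-0.49). Every value below follows the exchange, and the counts with the files as listed stand beside each main result.

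The median red signal was 845, 607.5 and 797 on the rad3-deleted arrays and 833.5, 560.5 and 602 on the cdc25-22 arrays, over backgrounds of 59 to 72. The share of probes well above background was 84.9% on rad3-deleted array 2 and between 96.5% and 99.8% on the other 5. Input profiles of the same strain correlated with r between 0.90 and 0.93 over 617 windows of 20 kb, as a description of points that share probes and base composition. Each of the 3 slides held 1 array of each strain, so a difference can also be taken within a slide. The number of arrays limits the precision.

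AT-rich islands from the windows described further on are printed here (2 of them) because they lie in interior loci with some of the largest differences in input among the annotated 5 kb windows that hold an island. Each is 200 bases of the plus strand of ASM294v3, the most A+T-rich stretch of its island, with runs of at least 5 A or 5 T (AAAAA on either strand) in capitals.
chrI:302028-302227: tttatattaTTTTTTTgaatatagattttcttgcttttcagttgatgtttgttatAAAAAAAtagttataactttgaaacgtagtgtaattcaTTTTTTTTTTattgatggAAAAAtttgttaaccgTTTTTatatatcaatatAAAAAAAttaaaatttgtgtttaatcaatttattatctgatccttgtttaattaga
chrII:1867689-1867888: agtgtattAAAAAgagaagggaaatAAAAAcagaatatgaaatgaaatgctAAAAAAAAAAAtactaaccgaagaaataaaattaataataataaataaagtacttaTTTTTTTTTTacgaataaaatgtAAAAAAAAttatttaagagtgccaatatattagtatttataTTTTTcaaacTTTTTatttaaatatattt
Both stretches are intergenic and lie between genes that point away from each other: tup11 and SPAC18B11.09C, and erf2 and SPBC3H7.08C. They were picked for their A+T share, so a high share, and with it more runs of A or T, follows from the choice. Their A+T share was 82.5% and 84.5%, against a median of 64% over 62850 windows of the same length. Runs of A or T took up 20.5% and 24.5% of their bases, a level reached by 0.508% and 0.162% of those windows, whose median was 3%.

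At a scale of 20 kb the chromosome ends gave the largest differences in input. On chromosome I and at the left end of chromosome II, the outermost 50 kb of probed sequence was higher in rad3-deleted cells by 0.43 to 0.68 log2. The right end of chromosome II was higher by 0.20. Neither end of chromosome III showed this: the differences were -0.05 and -0.04. Of the 617 windows of 20 kb, 17 passed the test as higher in rad3-deleted cells (2.76%, limma with Benjamini-Hochberg adjustment at 0.05) and 0 as lower (0%), with 47 higher and 23 lower at an unadjusted p under 0.05. Of the 17, 10 lay within 100 kb of an end of the array's probes, against 34 of all 617 windows. All rad3-deleted arrays were above all cdc25-22 arrays in 58 windows (9.4%) and below them in 64 (10.4%). With the slide as a block, 62 windows were higher (10%), among them all 17, and 41 were lower (6.65%). In that fit, which leaves 2 residual degrees of freedom, limma estimated a common spread for all windows. Leaving out 1 array gave 8 to 19 windows called higher (9 without rad3-deleted replicate 2, 8 without rad3-deleted replicate 3, 10 without cdc25-22 replicate 1 and 9 without cdc25-22 replicate 2), and a normexp background correction gave 3. With the files as listed, 0 windows were higher and 0 lower, and 1 was higher at an unadjusted p under 0.05.

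The right end of chromosome I held the steepest contrast, given in array positions because array and reference lie about 6 kb apart there. In the window chrI:5520001-5540000 the log2 input was 0.46, 0.51 and 0.40 on the rad3-deleted arrays, against -0.25, -0.26 and -0.24 on the cdc25-22 arrays. All 3 rad3-deleted arrays were above the genome's median and all 3 cdc25-22 arrays below it, a difference of 0.705 ± 0.051 (SE, adjusted p = 3.64e-06, limma). The next window towards the end, chrI:5540001-5560000, had 0.24, 0.36 and 0.36 in rad3-deleted cells and -0.31, -0.33 and -0.46 in cdc25-22 cells. Going inwards, chrI:5500001-5520000 differed by 0.569 ± 0.073 and chrI:5480001-5500000 by 0.351 ± 0.066 (SE). Over the outer 50 kb at this end, 27 of 34 bins of 1 kb had all rad3-deleted arrays above all cdc25-22 arrays (79.4%), against 386 of 11924 bins over the genome (3.24%). In steps of 10 kb from the outermost probe, the strains did not overlap up to 70 kb, where the differences ran between 0.42 and 0.74, and the difference was 0.46 at 70 to 80 kb and 0.17 at 80 to 90 kb, with overlap in both.

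The left end of chromosome II showed the same contrast over a shorter stretch of probes. Probes start there only at base 29534, so its distances do not count from the chromosome's end. The window chrII:20001-40000 had 0.21, 0.12 and 0.01 in rad3-deleted cells and -0.53, -0.52 and -0.56 in cdc25-22 cells, a difference of 0.649 ± 0.058 (SE, adjusted p = 1.41e-05, limma). It holds SPBC1348.07 to SPBC1348.12, prl11 and part of ght7, a hexose transporter gene, but sequence before base 29534 was not measured. The next window, chrII:40001-60000, with grt1, the fluoride exporter gene fex2 and the enolase gene eno102, had 0.03, 0.07 and 0.05 in rad3-deleted cells and -0.49, -0.46 and -0.42 in cdc25-22 cells. In steps of 10 kb from the outermost probe, the strains first overlapped at 30 to 40 kb, where the difference was 0.23.

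The left end of chromosome I started from a high level in both strains. The window chrI:60001-80000, with the dihydroxyacetone kinase gene dak2, had 0.52, 0.52 and 0.54 in rad3-deleted cells and 0.06, -0.01 and 0.11 in cdc25-22 cells, a difference of 0.475 ± 0.052 (SE, adjusted p = 8.28e-05, limma). The windows on either side of it differed by 0.314 ± 0.072 and 0.284 ± 0.068 (SE). They carry pfl6 and pfl8, genes of the flocculin family, fex1, a fluoride exporter gene, the hexose transporter gene ght3 and the siderophore transporter gene str3. Steps of 10 kb between 20 and 50 kb at this end had too few probes for a value, so pfl6 was sparsely measured. The outermost window, chrI:1-20000, was not called without the block: its values were 0.78, 0.84 and 1.25 in rad3-deleted cells and 0.35, 0.57 and 0.78 in cdc25-22 cells (adjusted p = 0.125, limma; 4.51e-18 with the slide as a block). The blocked value rests on the common spread of all windows and does not use this window's own spread between arrays. Only 15 bins of the outer 50 kb were measured here, and subtelomeric sequence has near copies at other ends, so a probe there can read more than 1 locus.

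At the right end of chromosome II the probes stop at 4491993 of 4539804 bases, so the outermost part was not analysed here. The window chrII:4480001-4500000, with the galactose genes gal1, gal7 and gal10, had 0.44, 0.31 and 0.54 in rad3-deleted cells and 0.14, 0.10 and 0.18 in cdc25-22 cells, a difference of 0.290 ± 0.062 (SE, adjusted p = 0.0271, limma). On chromosome III, whose ends border the ribosomal DNA repeats, the outer 50 kb had means of -0.07, 0.00 and 0.07 in rad3-deleted cells and -0.03, 0.07 and 0.12 in cdc25-22 cells on the left. Probes start there at base 30908. On the right the means were -0.34, -0.56 and -0.30 in rad3-deleted cells and -0.30, -0.49 and -0.28 in cdc25-22 cells.

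**Figure D1:**
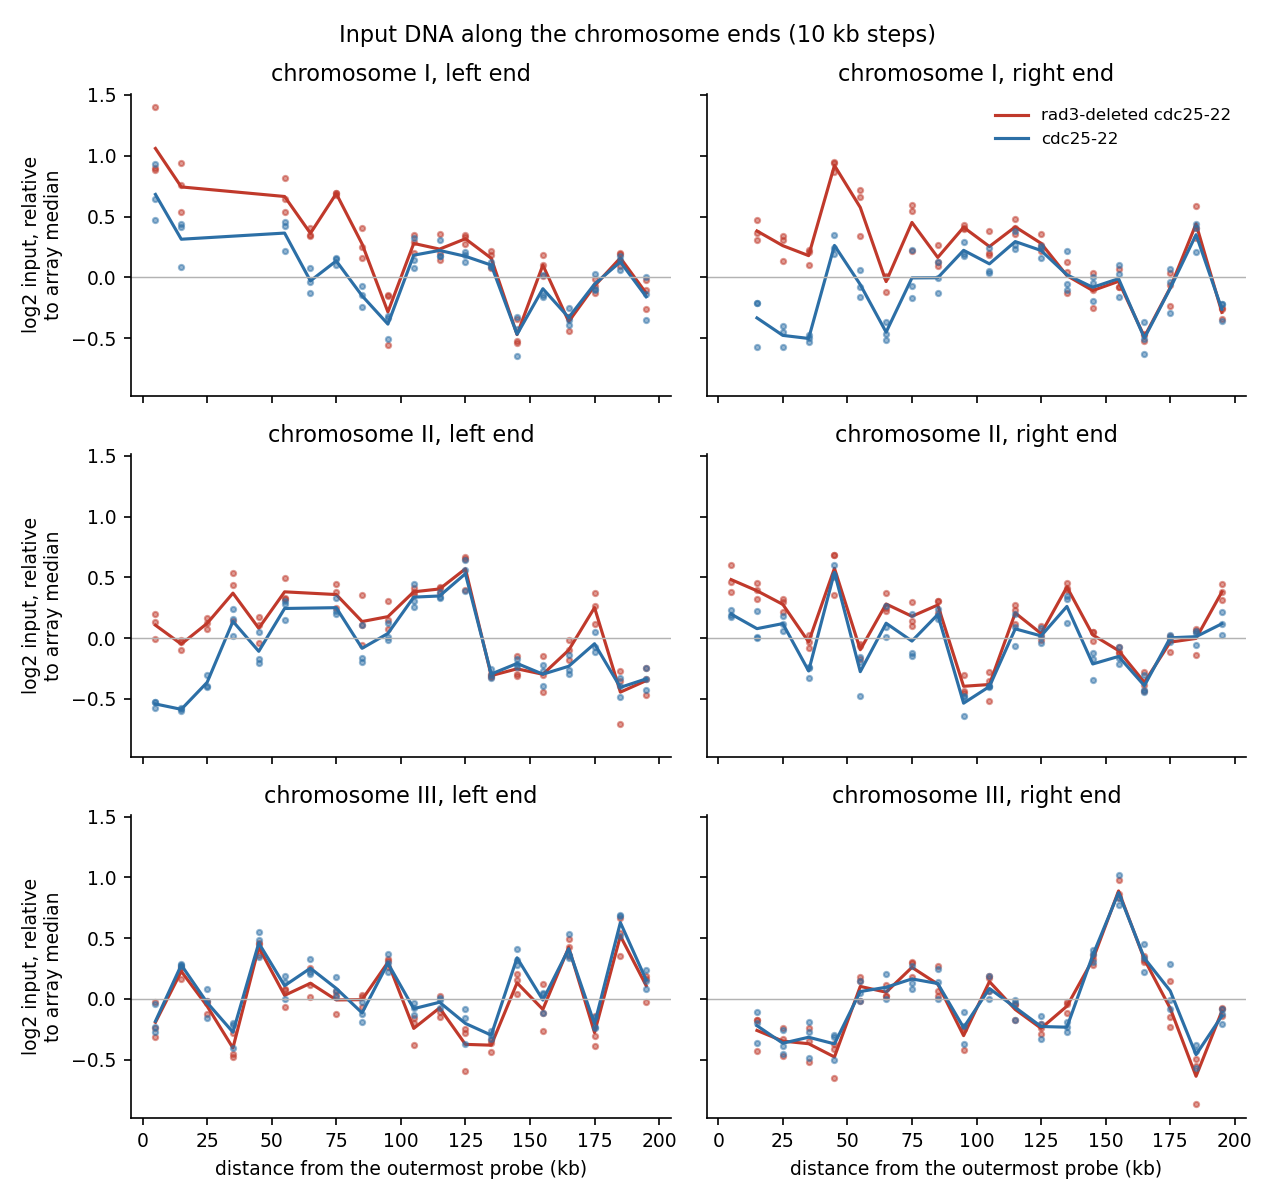
Log2 input relative to the array median (vertical axis) in 10 kb steps against distance from the outermost probe in kb (horizontal axis) at the 6 chromosome ends; points are arrays, lines strain means, and steps with too few probes are missing. The rad3-deleted line runs above the cdc25-22 line next to both ends of chromosome I and of chromosome II, by 0.68 log2 over the outer 50 kb at the right end of chromosome I, and the lines run together at both ends of chromosome III.

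Over all 6 ends, the outer 50 kb (230 bins) averaged 0.12, 0.10 and 0.21 in rad3-deleted cells and -0.12, -0.13 and -0.04 in cdc25-22 cells. The difference was 0.24 on slide 1, 0.22 on slide 2 and 0.25 on slide 3, against -0.01 over all 11924 bins. Of these bins, 65 did not overlap in the higher direction (28.3%) and 1 in the lower (0.435%), against 3.24% and 3.42% over the genome. With the files as listed the difference was -0.07, and with a normexp background correction it was 0.157. Under that correction the median difference over all 20 kb windows was -0.092, against -0.025 without it.

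Away from the ends, 7 of the 17 windows were called. The largest of these, chrI:5260001-5280000 in array positions, had 0.02, 0.19 and 0.05 in rad3-deleted cells and -0.39, -0.26 and -0.31 in cdc25-22 cells, a difference of 0.405 ± 0.060 (SE, adjusted p = 0.00145, limma). It contains the single 1 kb bin that passed the test among 11924 (0.00839%), chrI:5263001-5264000. There the log2 input was 1.37, 1.46 and 1.51 on the rad3-deleted arrays, against -0.12, 0.08 and 0.03 on the cdc25-22 arrays, and the groups lay far apart. The difference was 1.45 ± 0.16 (SE, adjusted p = 0.0471, limma). No bin (0) was called in any of the 6 fits that left out 1 array, and 244 bins were higher and 42 lower at an unadjusted p under 0.05. With the slide as a block, 2 bins were called higher (0.0168%): this one and its neighbour chrI:5264001-5265000, with 2.32, 3.12 and 2.52 in rad3-deleted cells and 0.81, 1.59 and 1.07 in cdc25-22 cells (adjusted p = 0.0134 for both). With the files as listed, 0 bins were called higher (0%). No gene is named here, because the positions of this part of chromosome I do not coincide with the reference.

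**Figure D2:**
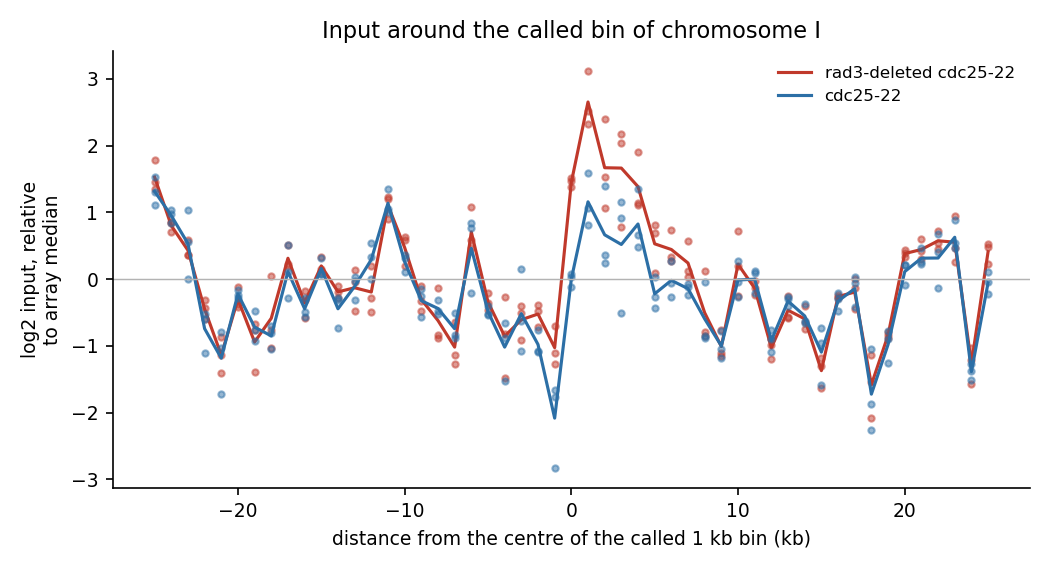
Log2 input relative to the array median (vertical axis) in 1 kb bins against distance in kb from the centre of the called bin (horizontal axis); points are arrays and lines strain means. The rad3-deleted mean runs above the cdc25-22 mean from 2 kb before the bin, where the difference is 0.46, to 7 kb after it, where it is 0.38, and the largest difference, 1.495, is in the bin next to the called one.

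The other interior windows differed by 0.22 to 0.27. The window chrII:4100001-4120000, with puf1, mug147 and utp20, had 0.21, 0.24 and 0.16 in rad3-deleted cells and -0.07, -0.10 and -0.04 in cdc25-22 cells (difference 0.274 ± 0.051, SE, adjusted p = 0.0105, limma). The window chrII:940001-960000 carries orc5, a subunit of the origin recognition complex, and gap1, a GTPase-activating protein of Ras. It had 0.42, 0.56 and 0.55 in rad3-deleted cells and 0.22, 0.27 and 0.33 in cdc25-22 cells, so it was above the genome's median in both strains. In the windows chrI:400001-420000, chrI:1940001-1960000, chrI:2520001-2540000 and chrII:4280001-4300000 the cdc25-22 arrays lay between -0.34 and -0.14 and the rad3-deleted arrays between -0.11 and 0.12. These 4 hold, among others, dbp10, an RNA helicase gene, pcs2, a kinetochore monopolin gene, jmj1, a jumonji-domain gene, and nrm1, the co-repressor of the G1-S transcription factor MBF. Over all 17 called windows the median level was 0.20 in rad3-deleted cells and -0.24 in cdc25-22 cells. Each of the 17 was higher on all 3 slides, as were 122 of all 617 windows. The 17 were called on these same arrays, so this describes them and is no separate test.

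**Figure D3:**
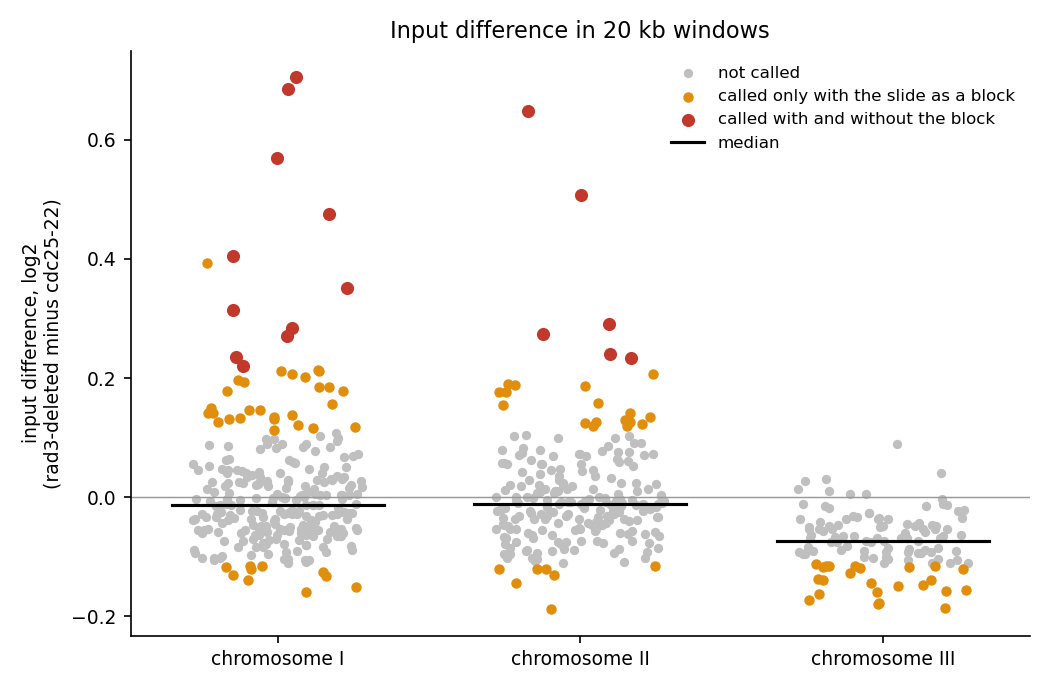
Input difference, rad3-deleted minus cdc25-22, in log2 (vertical axis) for the 617 windows of 20 kb by chromosome (horizontal axis, points spread sideways at random); colours mark the calls and bars the medians. Chromosomes I and II carry all 17 windows called without the block, up to 0.70, and the median of chromosome III, -0.07, lies below those of chromosomes I and II, both -0.01.

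Chromosome III as a whole was slightly lower in rad3-deleted cells. Of its 118 windows, 110 had a difference below 0 (93.2%), against 153 of 276 on chromosome I (55.4%) and 129 of 223 on chromosome II (57.8%). The median difference on chromosome III was -0.05 on slide 1, -0.12 on slide 2 and -0.06 on slide 3. With the slide as a block, 24 of the 41 windows called lower lay on chromosome III, 10 on chromosome I and 7 on chromosome II, and none (0) lay within 100 kb of an end; of the 62 called higher, 0 lay on chromosome III. The lowest was chrII:1360001-1380000, which contains the histone H4 gene hhf2, with -0.52, -0.61 and -0.50 in rad3-deleted cells and -0.35, -0.36 and -0.36 in cdc25-22 cells (adjusted p = 0.000201 with the slide as a block). Next came chrIII:420001-440000, with -0.28, -0.32 and -0.13 in rad3-deleted cells and -0.07, -0.07 and -0.02 in cdc25-22 cells. These lower calls are small, between -0.19 and -0.11, and rest on the blocked fit, in which limma estimated 1 common spread for all windows and which leaves 2 residual degrees of freedom.

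A finer grid with the slide as a block, chosen after seeing the data, placed the interior differences. Of 2452 windows of 5 kb, 113 were higher in rad3-deleted cells (4.61%) and 11 lower (0.449%). Within 100 kb of an end lay 40 of the 113 and 0 of the 11, against 116 of all 2452. Of the higher windows beyond 100 kb and on annotated sequence, 39 of 58 held an AT-rich island (67.2%), against 1 of 9 lower windows (11.1%) and 319 of 1999 of all such windows (16%). The window chrII:4105001-4110000 had 0.87, 1.01 and 0.92 in rad3-deleted cells and 0.16, 0.38 and 0.23 in cdc25-22 cells. It was above the genome's median in both strains and higher in rad3-deleted cells by 0.674 (adjusted p = 4.84e-05, limma, slide as a block).
The window chrI:300001-305000 around the first island printed above, between tup11, a transcriptional co-repressor gene, and SPAC18B11.09C, had 0.49, 0.68 and 0.50 in rad3-deleted cells and -0.05, 0.12 and 0.12 in cdc25-22 cells. The window chrII:1865001-1870000 around the second, with erf2, a gene for palmitoylation of proteins, and elp6, an Elongator subunit gene, had 0.06, 0.14 and -0.06 in rad3-deleted cells and -0.43, -0.35 and -0.54 in cdc25-22 cells. These 3 windows were taken from called windows in which the strains did not overlap, so their lack of overlap is part of the choice. Among other called windows with an island, chrI:2660001-2665000 (sea2, stg1 and mug114) differed by 0.481, chrII:4290001-4295000 (rae1, a messenger RNA export gene, and rsm25) by 0.480, and chrI:2525001-2530000 (jmj1 and atg101, an autophagy gene) by 0.469. Windows without an island were also called, such as chrII:3150001-3155000 (xdj1 and rpl3602), which differed by 0.524, and chrIII:1035001-1040000 (erm1), which differed by 0.461 on a chromosome where most windows were lower.

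The islands as a class showed a much smaller shift than these loci. The 371 island bins averaged 0.18, 0.18 and 0.17 in rad3-deleted cells and 0.05, 0.17 and 0.08 in cdc25-22 cells, so both strains were above the genome's median and the groups did not overlap, though by little. The difference of 0.07 came from 0.13 on slide 1, 0.01 on slide 2 and 0.08 on slide 3, so 1 slide showed next to none. Of the island bins, 28 did not overlap in the higher direction (7.55%) and 2 in the lower (0.539%), against 3.24% and 3.42% over the genome. With normexp the difference was 0.016, with the files as listed -0.019, and with islands of at least 72% A+T 0.020. Normexp also lowered the median difference over all 20 kb windows, from -0.025 to -0.092, so its island value stands on a lower baseline. Around the centres of 306 islands, the mean difference was 0.07 at the centre and 0.09 at 1 kb on either side, and about 0.00 at 6 kb to the right.

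**Figure D4:**
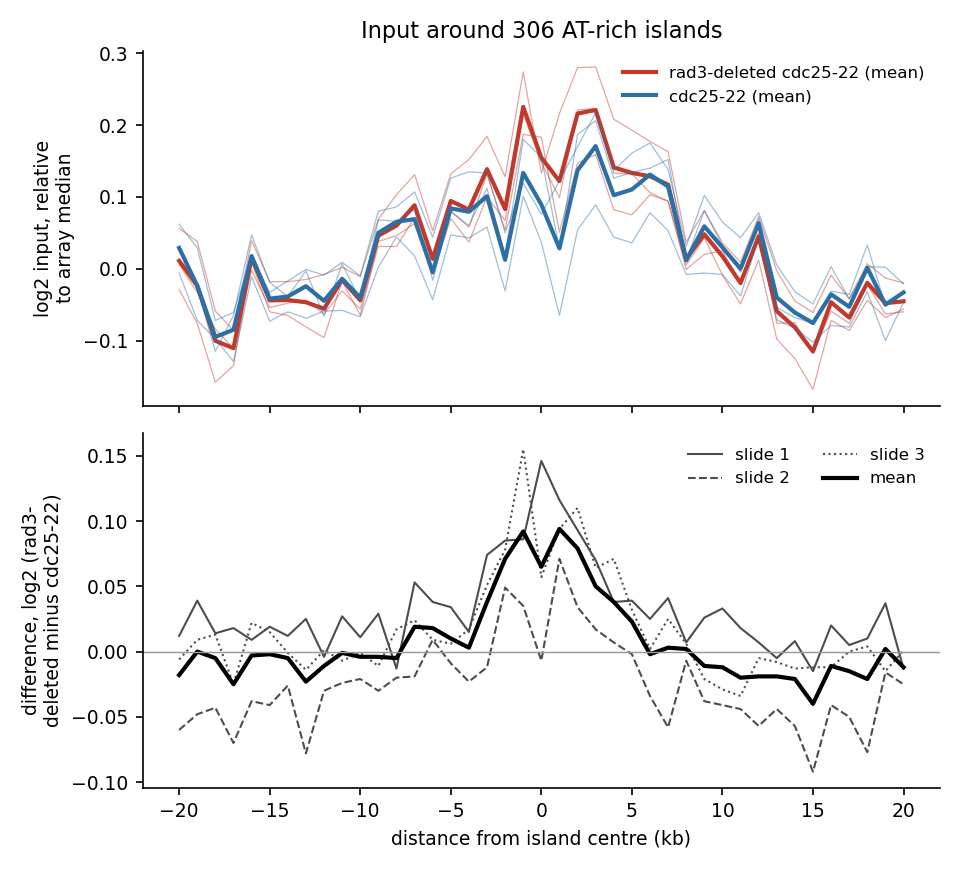
Log2 input relative to the array median (upper panel) and the difference rad3-deleted minus cdc25-22 (lower panel), averaged by distance in kb from the centres of 306 AT-rich islands; thin lines are arrays or slides, thick lines means. Input rises towards the islands in both strains, and the mean difference reaches 0.09 at 1 kb from the centre; slide 2 has the lowest difference at the centre.

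The features below differed by less, as means over bins, than the islands of at least 75% A+T. This ranking did not hold for every island cut-off given above. Bins between divergent genes (924) differed by 0.04, which was 0.08 on slide 1, 0.00 on slide 2 and 0.03 on slide 3. Of them 5.84% did not overlap in the higher direction and 2.49% in the lower, against 3.24% and 3.42% over all bins. Gene interiors (4311 bins) differed by -0.03, those between tandem genes (674) by 0.01 and those between convergent genes (71) by -0.04. Bins with tRNA genes differed by -0.02, those with 5S ribosomal RNA genes by -0.05 and those with small nuclear or nucleolar RNA genes by -0.05. The centromeres of chromosomes II and III (17 bins; that of chromosome I was not analysed here) had -0.14, -0.07 and 0.03 in rad3-deleted cells and -0.20, -0.02 and 0.02 in cdc25-22 cells, with overlap. The mating-type region differed by -0.02 over 49 bins, a value with no stable sign. It was 0.08 with only probes well above background, 0.09 as a median over bins and 0.01 without rad3-deleted replicate 2 or without cdc25-22 replicate 3. In it 5 bins did not overlap in the higher direction (10.2%) and 3 in the lower (6.12%), against 3.24% and 3.42% over all bins. In this region 1 bin stood far below the rest.

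That bin, chrII:2115001-2116000 beside the mating-type gene mat1-Mc, had -3.95, -2.21 and -3.61 in rad3-deleted cells and -1.38, -0.66 and -0.03 in cdc25-22 cells. The strains did not overlap, but the bin did not pass the test (adjusted p = 0.761, limma; 0.158 with the slide as a block). The low values came from 1 probe, at chrII:2115566-2115625 inside the non-coding gene SPNCRNA.388, with -5.99, -3.79 and -6.18 in rad3-deleted cells and -1.21, -0.52 and 0.62 in cdc25-22 cells. It was not well above background on the 3 rad3-deleted arrays and well above it on the 3 cdc25-22 arrays, so the size of the difference is only bounded: set against the dimmest probes well above background, its signal was at least 6.5-fold lower in rad3-deleted cells. The reference under this probe is shown because it is the only stretch outside rad3 (1 probe) that lay over 1.5 log2 below the lowest cdc25-22 array on every rad3-deleted array, and it occurs once (1 exact copy) in the assembly. No base is in capitals.
chrII:2115566-2115625: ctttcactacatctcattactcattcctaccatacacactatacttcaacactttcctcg

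The ura4 gene, for an enzyme of pyrimidine synthesis and a common selection marker in gene replacements, lies at chrIII:115589-116625. Its 3 probes were higher in rad3-deleted cells by 0.298, 0.537 and 0.611 log2. The middle one had 0.81, 0.07 and 0.52 in rad3-deleted cells and 0.32, -0.45 and -0.08 in cdc25-22 cells. Probes just outside the gene, from chrIII:115344 to chrIII:116940, were higher too, by 0.454 to 1.11. Over 50 kb on each side the difference was -0.07, close to that of chromosome III, so the raised stretch was short; the marker used to delete rad3 is not given in the sources used here.

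Single protein-coding genes could not be called. Of 4129 genes with at least 2 probes, 0 were higher and 0 lower (0% each, limma), with 69 higher and 14 lower at an unadjusted p under 0.05, and 0 in either direction with the slide as a block. In 109 genes all rad3-deleted arrays were above all cdc25-22 arrays (2.64%), and in 159 they were below (3.85%). Among the non-overlapping genes, none of them called, the largest differences were those of dpe2 (0.81), jmj1 (0.79), stg1 (0.69), a transgelin-like gene, iec3 (0.69), for a subunit of the Ino80 chromatin remodeller, SPBPB8B6.02C (0.64), SPAPJ695.01C (0.63), rsm25 (0.62), for a mitochondrial ribosomal protein, SPBC16G5.19 (0.58), SPAPJ695.02 (0.58) and SPBC1348.12 (0.57). Without cdc25-22 replicate 3 the difference of dpe2 was 0.38, without cdc25-22 replicate 1 that of iec3 was 0.395 and that of SPBC16G5.19 0.28. SPAPJ695.01C, SPAPJ695.02, SPBPB8B6.02C and SPBC1348.12 lie in the subtelomeric windows above. The stg1 gene had -0.09, 0.18 and -0.06 in rad3-deleted cells and -0.60, -0.84 and -0.61 in cdc25-22 cells (adjusted p = 0.9997, limma; 0.169 with the slide as a block). The lowest, also not called, were slt1 (-0.58), tpx1 (-0.47), a peroxiredoxin gene, SPCC306.07C (-0.41), mde7 (-0.40), rpl1901 (-0.38), for a ribosomal protein, tum1 (-0.36), gcd1 (-0.35), SPBC26H8.13C (-0.35), arc1 (-0.35) and SPAPB2C8.01 (-0.34). In 9 of these 20 genes, leaving out 1 array brought the difference down by more than 1.5 times; on the lower side these were tpx1, SPCC306.07C, mde7, SPBC26H8.13C and SPAPB2C8.01, without rad3-deleted replicate 2, and arc1, without cdc25-22 replicate 1.

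Bins that were not called but did not overlap had differences of 0.90 to 1.06 in the higher direction. These 8 bins were chrI:5262001-5263000, next to the called bin, chrI:5537001-5538000, chrI:5538001-5539000 and chrI:23001-24000, near the ends of chromosome I, chrI:2526001-2527000 in jmj1, chrII:4109001-4110000 beside SPBC56F2.05C, chrII:3152001-3153000 in xdj1, and chrI:5317001-5318000. In the lower direction, beside the mat1 bin, differences were -0.76 to -0.52. These 9 were chrI:3972001-3973000, chrII:651001-652000 in elg1, which encodes a replication factor C-like protein, chrII:1627001-1628000, which lies in centromere II, chrIII:174001-175000, chrIII:866001-867000 in eis1, chrI:4310001-4311000, chrI:4613001-4614000, chrIII:155001-156000 near mde7, and chrII:683001-684000. In 11 of the 20 bins named here and above, the difference on 1 slide was larger than those on the other slides together, and in 8 of these it was slide 2, which holds the array with the fewest probes well above background (84.9%, rad3-deleted replicate 2). Thus chrI:3972001-3973000 differed by -0.15, -1.92 and -0.19 on the 3 slides, and chrII:651001-652000 by -0.365, -1.54 and -0.11.

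Genes of known function gave 0 calls in every list. Among 30 measured genes of the replication machinery, of 33 listed, the median difference was -0.06, against -0.03 over all genes tested. In 1 of the 30 the strains did not overlap, in the higher direction, against 2.64% of all genes higher and 3.85% lower. The highest was hsk1, which encodes the Cdc7 kinase that starts origins, with -0.01, -0.07 and 0.00 in rad3-deleted cells and -0.48, -0.59 and -0.56 in cdc25-22 cells. The gap of 0.52 did not pass the test (adjusted p = 0.9997, limma; 0.169 with the slide as a block), although the groups did not overlap. Among 14 measured genes of checkpoint and recombination, of 20, the median was 0.02 and the range -0.17 to 0.32, none of them called. In 3 of the 14 the strains did not overlap, all in the higher direction, against 2.64% higher and 3.85% lower over all genes. These were nbs1 (0.32) and mre11 (0.21), both of the MRN complex that binds broken ends, and crb2 (0.11), a checkpoint mediator. The kinase gene cds1 (0.23) and rad55 (0.14) differed by similar amounts, with overlap. The median was -0.03 in 10 of 11 MBF target genes, -0.06 in 11 of 13 glycolytic genes and -0.20 in 4 of 9 core histone genes. It was -0.09 in 85 of 141 genes listed as ribosomal protein genes by symbol (rpl, rps or rpp followed by a digit). Not every rpp gene among them encodes a ribosomal protein. Of these 85 genes, 0 did not overlap in the higher direction and 3 in the lower, against 2.64% and 3.85% of all genes. The rps3 gene led its list, with -1.35, -1.83 and -1.05 in rad3-deleted cells and -2.20, -1.95 and -1.33 in cdc25-22 cells, and the groups overlapped.

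Input and immunoprecipitate moved together. Across the 617 windows the difference in input and the difference in the green, Rad52-immunoprecipitated channel correlated with r = 0.860, and with 0.638 over 11907 bins; both channels come from the same spots and arrays, so this is a description. In the 17 called windows the immunoprecipitate was higher in rad3-deleted cells in 17 of 17, by 0.337 to 2.27 log2, larger than the input difference in each. In the 41 windows called lower with the block, the immunoprecipitate was higher in 3 and had a median difference of -0.31. The part that signal passing between the dye channels has in the input differences was not tested.

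**Figure D5:**
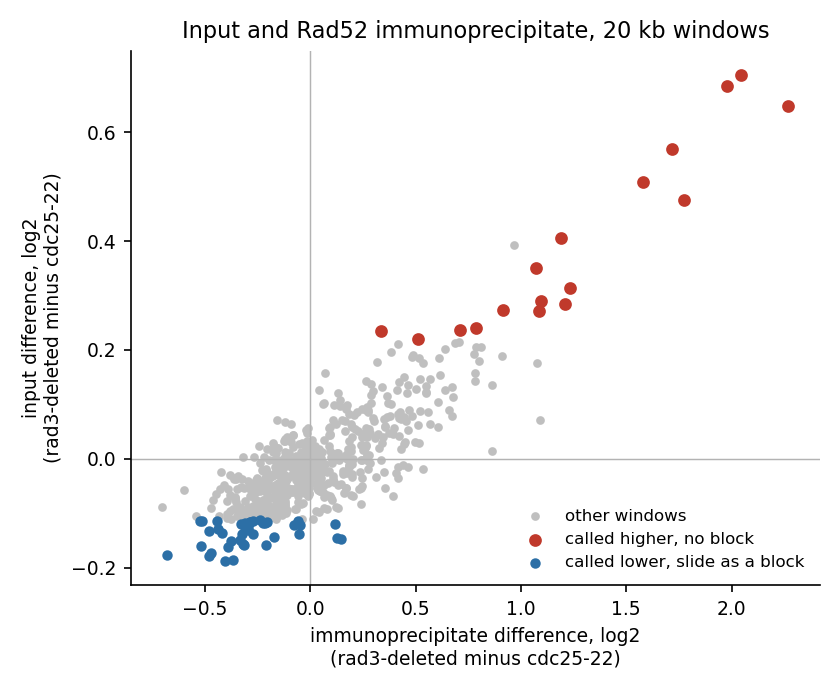
Input difference (vertical axis) against immunoprecipitate difference (horizontal axis), both rad3-deleted minus cdc25-22 in log2, for the 617 windows of 20 kb. The 17 windows called higher lie at the upper right, with immunoprecipitate differences of 0.337 to 2.27, and the points form a single band (r = 0.860).

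The spread of the profile differed little between strains. The SD of log2 input over 20 kb windows was 0.22, 0.26 and 0.25 in rad3-deleted cells and 0.22, 0.26 and 0.23 in cdc25-22 cells (exact two-sided permutation p = 0.7; the smallest that 3 against 3 arrays allow is 0.1). It was higher in rad3-deleted cells on all 3 slides, by 0.0053 on average, but nearly all of this came from slide 3. The values were 0.2197 against 0.2186 on slide 1, 0.2625 against 0.2623 on slide 2 and 0.2453 against 0.2306 on slide 3. The exact paired permutation over slides gave p = 0.25, the smallest that 3 pairs allow. The slope of log2 input on A+T share was 0.20, 0.03 and 0.08 per 10 percentage points in rad3-deleted cells and 0.06, 0.00 and 0.09 in cdc25-22 cells (exact two-sided permutation p = 0.5), with overlap. Within-slide differences of the 3 slides correlated with r between 0.672 and 0.715 over the 617 windows, but only between 0.128 and 0.168 over 1 kb bins, which share the same probes in each slide. Probes of the mitochondrial genome (66), which the centring leaves out, had medians of 5.11, 5.07 and 5.16 log2 above the nuclear median in rad3-deleted cells and 4.88, 5.34 and 5.02 in cdc25-22 cells, with overlap.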

How the data were processed

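Red-channel input of 6 two-colour arrays was analysed. Per the submitters' processing notes the scanner files come from Agilent Feature Extraction 10.7.3.1; the CGH protocol was used on slides 1 and 2 and the ChIP protocol on slide 3, per the file headers. The processed signal is a spot intensity that the authors' software had background-subtracted and dye-corrected, per the file headers. The value table deposited by the authors, found to be a linear ratio (immunoprecipitate over input), served only to match files to samples (columns without a sample: 0). The labels name the molecule as RNA although the fractions are input and immunoprecipitate.

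Log2 processed signals without control and outlier-flagged spots were centred on each array's median and averaged in fixed 1 kb bins (at least 2 probes), 20 kb windows (at least 20) and protein-coding genes (at least 2), leaving out probes within 1 kb of rad3. Differences, rad3-deleted minus cdc25-22, were fitted over all features with limma 3.58.1 (R 4.3.3; lmFit, eBayes, Benjamini-Hochberg threshold 0.05), without and with the slide as a block. Same-numbered arrays shared a slide and deviated together (r = 0.580, 0.505 and 0.598 over 11924 bins for deviations from the strain means), so the replicate numbers pair the samples. Nothing says that replicates came from separate cultures, so p-values measure only the spread between these samples, which may be technical. Simulated data had independent noise with the same spread at every feature and no slide effect. In them 100% of changes of 0.3 log2 were recovered in 20 kb windows but 3% in 1 kb bins (97% of changes of 1 log2). The arrays here deviated together within slides and spreads differed between windows, so these shares need not hold for them.

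Per the file headers, array positions follow a genome version other than the reference ASM294v3, from which annotation and sequences (RefSeq) were taken. Positions coincided within 3 bp except on chromosome I beyond 3.75 Mb (6149 to 6150 bp apart, 14.2% of probes), where array positions and no gene names are given. AT-rich islands are merged 500 bp windows with an A+T share of 75% or more, away from centromeres and from the outer 50 kb. Genes and bins named are the 10 highest and 10 lowest differences among called ones, filled up with non-overlapping ones, and the leading members of 6 lists. The island sequences printed rank 2 and 3 by difference among the called, non-overlapping 5 kb windows that hold an island and lie at least 100 kb from an end, on annotated sequence; the sequence ranked 1 is not reported here. Members, lists and tests were chosen with earlier results of these data known. Tables and figures used Python 3.11.15 (numpy 2.4.6, pandas 2.3.3, matplotlib 3.10.9).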

Additional observations from a re-analysis of the deposited data

How the results depend on the processing

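With the slide as a block, and so with paired arrays, 62 windows of 20 kb were higher in rad3-deleted cells and 41 lower, against 17 and 0 without it, and 2 bins of 1 kb were higher against 1; genes stayed at 0 calls. With the files as listed, 0 windows and 0 bins were higher, the islands differed by -0.0194, the outer 50 kb by -0.0702 and the slope on A+T share by -0.063. Without 1 array, between 8 and 19 windows were called higher, at least 8 of them among the 17, with 9 without rad3-deleted replicate 2, 8 without rad3-deleted replicate 3, 10 without cdc25-22 replicate 1 and 9 without cdc25-22 replicate 2; the called bin was lost in every such fit (0 bins). Normexp gave 3 windows and 0 bins, an island difference of 0.0162 and 0.157 at the outer 50 kb. It also moved the median difference over all 20 kb windows from -0.0255 to -0.0925, and that over all genes from -0.0311 to -0.1022. Quantile normalization gave 29 windows higher and 3 lower. With the A+T trend removed, which leaves out chromosome I beyond 3.75 Mb, 2 windows were lower, 0 bins were higher and the outer 50 kb differed by 0.158; with the slide as a block too (chosen after seeing the data), 61 windows were higher, 46 lower and 0 bins higher. Bins of 500 bp gave 0 calls, bins of 5 kb 26, and 5 kb with the slide as a block 113 higher and 11 lower; windows of 50 kb gave 9. Islands of at least 72% and 78% A+T differed by 0.0195 and 0.0304, and the outer 25 kb by 0.2996. The difference in profile SD, 0.00529 as reported above, was -0.00471 without rad3-deleted replicate 2, -0.004 without cdc25-22 replicate 1, up to 0.0179 without cdc25-22 replicate 2, and -0.00493 with only probes well above background. With the files as listed the sign turned in all 17 called windows, named here by chromosome and start: -0.0238 at chrI:40001, -0.188 at chrI:60001, -0.0575 at chrI:80001, -0.0774 at chrI:400001, -0.126 at chrI:1940001, -0.102 at chrI:2520001, -0.165 at chrI:5260001, -0.0823 at chrI:5480001, -0.127 at chrI:5500001, -0.281 at chrI:5520001, -0.138 at chrI:5540001, -0.267 at chrII:20001, -0.197 at chrII:40001, -0.0926 at chrII:940001, -0.143 at chrII:4100001, -0.0745 at chrII:4280001 and -0.0532 at chrII:4480001. It also turned in these bins: -0.527 at chrI:5264001, -0.465 at chrI:5263001, -0.62 at chrI:5262001, -0.7002 at chrI:5538001, -0.434 at chrI:2526001, -0.446 at chrII:4109001, -0.461 at chrI:5537001, -0.235 at chrI:5317001, 0.178 at chrII:2115001, 0.626 at chrI:3972001, 0.598 at chrII:651001, 0.206 at chrII:1627001, 0.351 at chrIII:174001, 0.432 at chrIII:866001, 0.505 at chrI:4310001, 0.291 at chrI:4613001, 0.351 at chrIII:155001 and 0.188 at chrII:683001. The genes in which it turned gave -0.172 in jmj1, -0.326 in stg1, -0.352 in iec3, -0.299 in SPBPB8B6.02C, -0.272 in SPAPJ695.01C, -0.269 in rsm25, -0.382 in SPBC16G5.19, -0.25 in SPAPJ695.02, -0.222 in SPBC1348.12, 0.397 in slt1, 0.213 in tpx1, 0.297 in SPCC306.07C, 0.352 in mde7, 0.258 in rpl1901, 0.0246 in tum1, 0.179 in gcd1, 0.185 in SPBC26H8.13C, 0.286 in arc1 and 0.301 in SPAPB2C8.01. Under normexp the bin at chrI:5262001 gave -0.0316. Listing the files as deposited exchanges the strains on 2 of the 3 slides. It reverses the sign of the difference on slides 1 and 2 and leaves slide 3 as it is. The as-listed differences thus follow from the slide differences and are no separate test. The cause of the other changes was not tested. The array with the fewest probes well above background, rad3-deleted replicate 2, limits what dim probes can show, and only values relative to each array's own median were available, so a change of the whole genome's DNA cannot be seen.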
